A study of Gallus gallus with 6 samples.

Results

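The DEAD and DEAH box helicases other than DDX4 are described here across cultured chicken primordial germ cells (PGC) and cultured chicken embryonic fibroblasts (CEF). The members were all genes whose single annotated symbol begins with DDX or DHX followed by a digit, with DDX4, the germ cell helicase VASA, left out. They came to 40 of 13009 named genes, 28 with a DDX symbol and 12 with a DHX symbol. Where a gene had several probe sets, the one that was brightest on average across all 6 arrays stood for it. This rule used no difference between the cell types, though members were chosen with earlier results of these data known. A probe set is a group of short array probes against one transcript.

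These proteins are named after the letters of a conserved amino acid motif, Asp-Glu-Ala-Asp in DEAD box and Asp-Glu-Ala-His in DEAH box proteins, and use ATP to open or remodel RNA duplexes and to strip proteins from RNA. Nearly every step of RNA life has its own members: splicing, ribosome assembly, nuclear export, translation, decay and the sensing of viral RNA. In animal germ cells DDX4 and its relatives are components of germ granules, cytoplasmic bodies of RNA and protein that hold silenced messages and the piRNA machinery.

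PGC are the embryonic precursors of eggs and sperm, and had been cultured from blood of embryos at day 2.5, pooled from 20 embryos for each replicate, in knockout DMEM to which human bFGF, a fibroblast growth factor, was added at 10 ng/ml. CEF had been grown from day 6.5 embryos after limbs and internal organs had been taken off, 5 embryos going into each replicate, in DMEM with 10% fetal bovine serum to passage 2. Each cell type had 3 arrays of biotinylated cRNA from about 5 µg of total RNA. The labels name no strain and no sex, and embryonic age, medium and cell type changed together, so their parts in any difference cannot be told apart.

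The germ cell markers were called higher in PGC for 6 of 6 measured genes and the fibroblast markers higher in CEF for 8 of 8, which matches the labelled cell types. Of 8 germ cell markers listed, 2 (NANOG and POU5F3) matched no gene symbol. Leukocyte markers were called higher in CEF for 8 of 10 genes and higher in PGC for 1, CYBB. Their log2 summed level was 9.71 to 10.70 on the CEF arrays and 6.67 to 6.77 on the PGC arrays. In CEF this sum rested largely on CD44, with a mean of 9.29, where the next brightest marker, PTPRC, had 6.98. Endothelial markers were called higher in CEF for 3 of 8, with a log2 summed level of 7.39 to 8.04 in CEF and 4.96 to 5.02 in PGC. ERG was at least 48.5-fold, VWF 4.68-fold and FLT1 at least 2.44-fold higher in CEF, while CDH5 and TEK were below background in both. The part of these markers in the results below was not tested. Of 15 erythroid markers listed, 10 matched no gene symbol and were not measured here. Of the other 5 limma called 0, with 2 at an unadjusted p under 0.05, both lower in PGC. Correlation across probe sets was 0.997 within PGC, 0.980 to 0.987 within CEF and 0.850 to 0.862 between them. As the arrays hold RNA of whole cultures, fewer cells of a type and less RNA per cell cannot be told apart.

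Helicases stood higher in PGC more often than genes at large. At an adjusted p under 0.05 and at least a 2-fold difference, 12 of 40 members (30.0%) were called higher in PGC, where 17.6% of all genes were. In the other direction 2 of 40 (5.0%) were called higher in CEF, where 14.9% of all genes were. The median log2 difference, PGC minus CEF, was 0.63 over the members and -0.05 over all genes, and 32 of the 40 differences were above 0. Of the members 39 of 40 lay above background in at least 1 cell type, as did 11463 of the 13009 genes. With only probe sets above background on at least 3 arrays, 30.8% of members and 20.3% of genes were called higher in PGC. No set test was made, so these shares are a description.

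Most differences were modest. Without the 2-fold minimum, 26 members (65.0%) were higher in PGC at an adjusted p under 0.05 against 32.1% of all genes, and 5 (12.5%) were higher in CEF against 29.3%. The 3 PGC arrays all lay above the 3 CEF arrays for 26 members, which 35.7% of all genes did, and all below them for 7 members, which 35.5% of all genes did. Of the 12 members called higher in PGC, DDX43 and DHX29 exceeded an 8-fold difference on the deposited values and the other 10 lay between 2.04-fold and 3.77-fold. When the 2-fold minimum itself was tested (limma's treat), 7 of the 12 kept their call, and DDX18, DDX28, DDX49, DDX59 and DHX8 did not, nor did either member called higher in CEF. Under treat 17.5% of members and 10.8% of all genes were called higher in PGC, and 9.86% of all genes higher in CEF.

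Both counts depended on how the arrays were scaled. The bacterial spike-ins bioB, bioC and bioD, added before hybridisation, had a mean log2 difference, PGC minus CEF, of -0.97, while that of cre, a further and brighter spike-in, was -0.13. When the arrays were scaled to bioB, bioC and bioD, the median of all genes moved from -0.05 to 0.93, 32 members were called higher in PGC against 45.7% of all genes, and limma called 0 higher in CEF against 7.1%. The share of all called genes that were higher in PGC moved from 54.3% to 86.5%. Differences below are PGC minus CEF on the deposited scale, where the median of all genes was -0.05, and hold only under that scaling. CEF replicates also varied more, with a median SD over members of 0.210 against 0.0555 in PGC. Over all genes the median SD was 0.197 in CEF and 0.0848 in PGC. CEF replicate 2 gave the lowest of the 3 CEF values for 29 of 40 members, as it did for 39.2% of all genes, and its part in the result was not tested beyond leaving it out. Without it 11 members were called higher in PGC, against 17.1% of all genes, and 1 higher in CEF, against 15.1%. The member median was then 0.53. The 1 higher in CEF was DHX57, newly called, while DDX11 and DHX58 lost their calls.

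**Figure D1:**
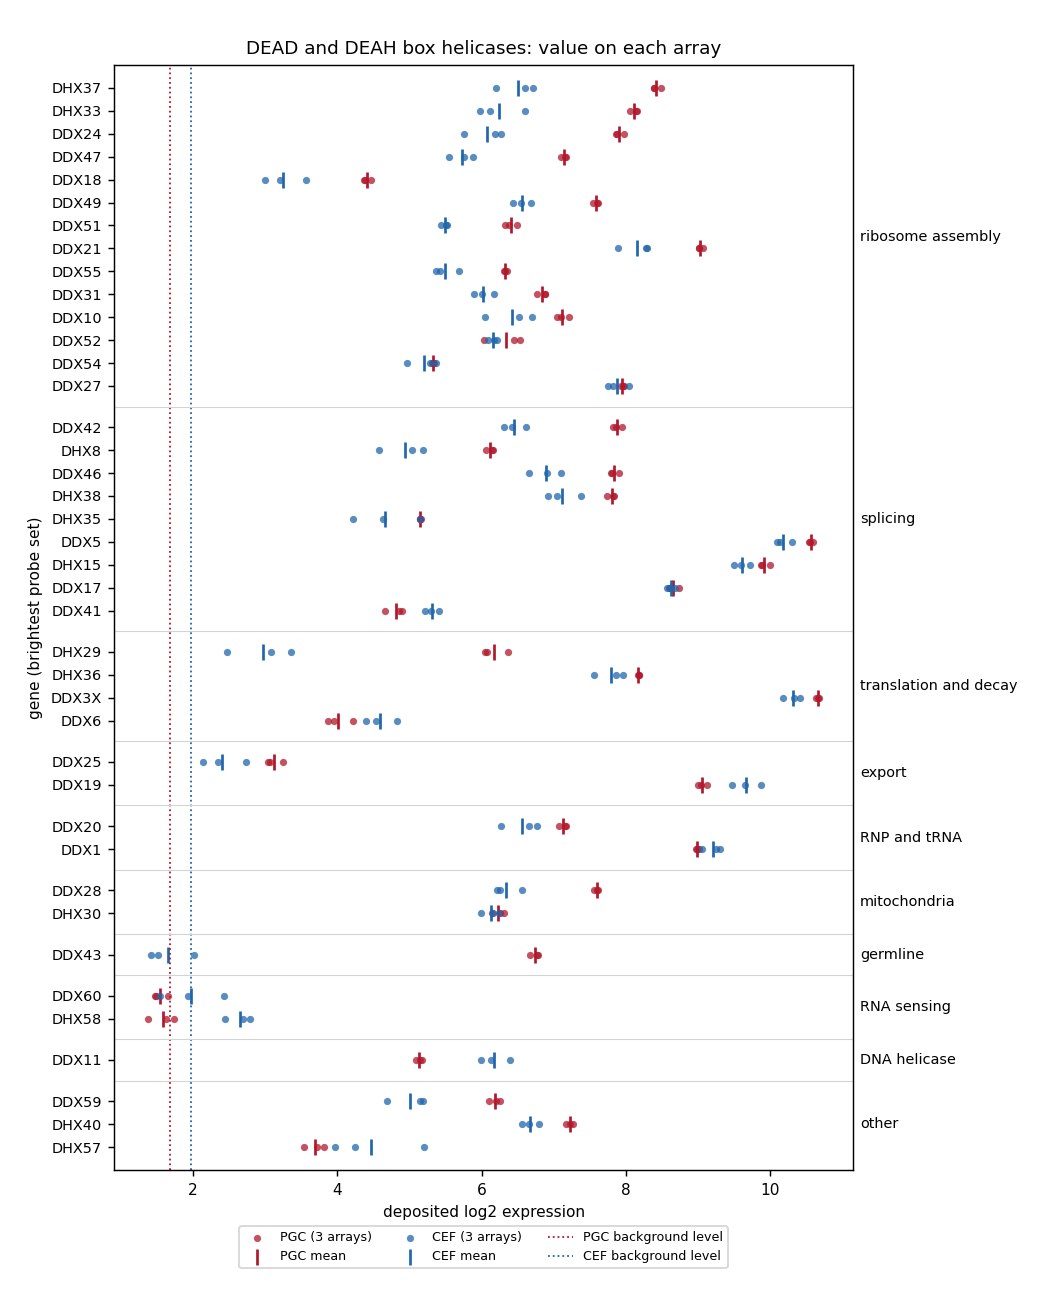
Deposited log2 expression (horizontal axis) of each of the 40 helicase genes on the 3 PGC and 3 CEF arrays, grouped by role. Points are arrays, short bars are means and dotted lines are the background levels of 1.68 in PGC and 1.97 in CEF. DDX43 and DHX29 show the widest separation between the cell types, and DDX60 lies below background in both.

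The helicases of ribosome assembly were the largest group by role. These enzymes work in the nucleolus, where they unwind ribosomal RNA and its guide RNAs while the subunits are put together. Of 14 members with this role, 6 (42.9%) were called higher in PGC, where 17.6% of all genes were. Limma called 0 of the 14 higher in CEF, where 14.9% of all genes were, with 0 at an unadjusted p under 0.05 in that direction. The group's median log2 difference was 0.89. The roles were chosen with earlier results known, and the group includes DHX33, described below for ribosomal DNA transcription and not for assembly itself.

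DHX37, a helicase of small subunit assembly whose human gene is mutated in disorders of gonadal development, read 8.38, 8.39 and 8.49 on the PGC arrays and 6.60, 6.20 and 6.72 on the CEF arrays. Its PGC values all lay far above its CEF values, and the log2 difference was 1.91 ± 0.14 (SE, 3 arrays against 3), or 3.77-fold (adjusted p = 6.5e-06). DHX33, a nucleolar helicase that promotes transcription of ribosomal DNA in human cells, read 8.14, 8.06 and 8.15 in PGC and 6.60, 5.98 and 6.12 in CEF. The separation was of the same order, 1.88 ± 0.16 or 3.68-fold (adjusted p = 1.6e-05).

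DDX24, the relative of a yeast factor of large subunit assembly, read 7.98, 7.88 and 7.86 in PGC and 6.27, 5.76 and 6.18 in CEF, a difference of 1.83 ± 0.14 (3.57-fold, adjusted p = 1.1e-05). DDX47, of small subunit processing, read 7.18, 7.15 and 7.10 in PGC and 5.88, 5.55 and 5.75 in CEF, a difference of 1.42 ± 0.12 (2.67-fold, adjusted p = 1.7e-05). For both genes the groups were well apart, but the mean over all DDX47 probe sets, of which a pair lay below background in both cell types, differed by 0.71 and was not called.

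DDX18, whose yeast relative acts in ribosome assembly, was dimmer, with 4.47, 4.39 and 4.38 in PGC and 3.57, 2.99 and 3.21 in CEF (1.16 ± 0.17, adjusted p = 0.00051). DDX49, a small subunit factor, read 7.61, 7.55 and 7.61 in PGC and 6.69, 6.44 and 6.55 in CEF (1.03 ± 0.10, adjusted p = 4.7e-05). The call of DDX49 rested on the 2-fold minimum, since its difference came to 0.97 without CEF replicate 2, to 0.91 after centring on the 75th percentile and to 0.96 after quantile normalization. It fell further, to 0.23, when DDX49 was averaged with its other probe set, which was below background in both cell types.

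A further 5 members of the group, DDX51, DDX21, DDX55, DDX31 and DDX10, were higher in PGC at an adjusted p under 0.05 but under the 2-fold minimum, with log2 differences between 0.70 and 0.91. DDX21, which couples ribosomal DNA transcription to RNA processing, read 9.02, 9.06 and 9.01 in PGC and 8.29, 7.90 and 8.28 in CEF (0.87 ± 0.11, adjusted p = 0.00023). The groups did not overlap, and the 95% interval of the difference ran from 0.62 to 1.13. Its paralog DDX50 was not analysed here. DDX52, DDX54 and DDX27 had overlapping groups and differences of 0.18, 0.13 and 0.08, with 95% intervals whose outer bounds were -0.20 and 0.52. A dimmer, shared probe set of DDX52 was higher in PGC without overlap (0.68 ± 0.15, adjusted p = 0.0057), and a dimmer one of DDX10 differed by 0.098.

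Factors of ribosome assembly that are not named DDX or DHX were also compared. Of 60 measured, 6 (10.0%) were called higher in PGC and 1 (1.67%) higher in CEF, both below the 17.6% and 14.9% of all genes. Their median difference was 0.50. With no size minimum, 36 (60.0%) were higher in PGC at an adjusted p under 0.05, against 32.1% of all genes. In that count 7 (11.7%) were higher in CEF, against 29.3%. The largest differences were those of WDR36 (1.61 ± 0.19, adjusted p = 0.00012), NOC3L (1.26 ± 0.12) and RPF1 (1.23 ± 0.12), all assembly factors of the nucleolus. UTP11, a small subunit factor, was the one called higher in CEF (-1.05 ± 0.12, adjusted p = 0.00011), and without CEF replicate 3 the list had 0 such calls by limma.

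**Figure D2:**
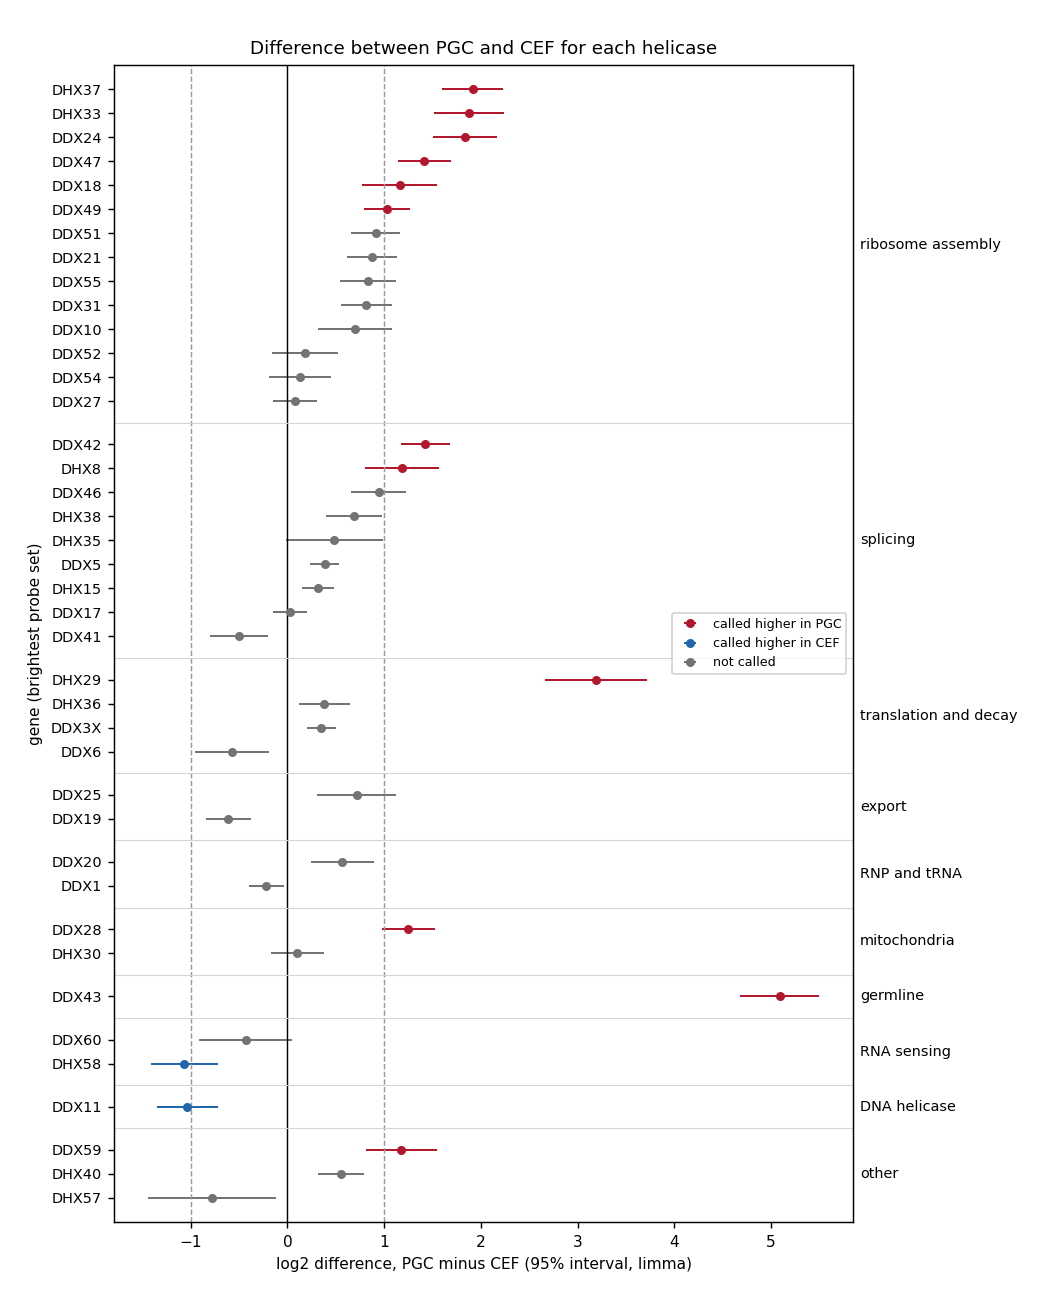
Log2 difference, PGC minus CEF (horizontal axis), with its 95% interval from limma for each of the 40 helicase genes, grouped by role. Dashed lines mark the 2-fold minimum. The 14 called genes are coloured, 12 of them to the right of the upper dashed line and DHX58 and DDX11 just past the lower one.

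Splicing helicases drive the rearrangements by which the spliceosome forms, cuts introns out and comes apart. Of 9 measured, 2 (22.2%) were called higher in PGC, close to the 17.6% of all genes. Limma called 0 of the 9 higher in CEF, against 14.9% of all genes, with 1 at an unadjusted p under 0.05 in that direction. DDX42, which associates with the branch point complex SF3b, read 7.82, 7.86 and 7.95 in PGC and 6.43, 6.32 and 6.62 in CEF (1.42 ± 0.11, 2.68-fold, adjusted p = 9.5e-06). DHX8, which releases the spliced message, read 6.15, 6.06 and 6.15 in PGC and 4.59, 5.03 and 5.18 in CEF (1.19 ± 0.17, 2.27-fold, adjusted p = 0.00041). Neither gene's groups overlapped. The call of DDX42 rested on this probe set, since its other one, below background in CEF, differed by 0.51 ± 0.22 (adjusted p = 0.082) and the mean of both by 0.97, neither of them called.

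DDX46, which acts when the branch point is first bound, fell just short of the 2-fold minimum at 0.94 ± 0.12 (adjusted p = 0.00026), and passed it at 1.05 without CEF replicate 3. DHX38, needed for the second splicing step, differed by 0.69 ± 0.13 and DHX15, which takes spent spliceosomes apart, by 0.32 ± 0.072. DHX35 differed by 0.48 ± 0.22, with 1 CEF array level with the PGC arrays. DDX41, mutated in human myeloid neoplasms, differed by -0.50 ± 0.13 on its brightest probe set (adjusted p = 0.013), but by 0.66 ± 0.16 (adjusted p = 0.0085) and 1.24 ± 0.29 (adjusted p = 0.0074, called higher in PGC) on its other probe sets. No direction is given for DDX41.

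DDX5 and DDX17 are close paralogs that serve in splicing, microRNA processing and as partners of transcription factors. DDX5 read 10.54, 10.55 and 10.59 in PGC and 10.09, 10.13 and 10.31 in CEF, a small difference without overlap (0.38 ± 0.064, 1.30-fold, adjusted p = 0.0011). DDX17 read 8.62, 8.73 and 8.60 in PGC and 8.68, 8.56 and 8.62 in CEF. Its groups overlapped, and the difference of 0.026 had a 95% interval from -0.15 to 0.20 and a sign that turned under 75th percentile centring, under quantile normalization and without PGC replicate 2 or CEF replicate 2. The difference between the 2 paralogs was not tested.

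Partner proteins of the spliceosome were called higher in PGC for 8 of 22 measured genes (36.4%, against 17.6% of all genes), with a median difference of 0.65. Limma called 0 higher in CEF, against 14.9% of all genes, with 2 at an unadjusted p under 0.05. CWC22, which places the helicase EIF4A3 on spliced messages, had the largest difference at 1.91 ± 0.21 (adjusted p = 8.7e-05). PRPF4, of the tri-snRNP, was below background in CEF and at least 2.52-fold higher in PGC. SNRNP40 differed by 1.19 ± 0.12.

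G-patch proteins switch on DEAH box helicases, and 4 of 17 (23.5%) were called higher in PGC, close to the 17.6% of all genes, with a median difference of 0.71. Limma called 0 higher in CEF, against 14.9% of all genes, with 1 at an unadjusted p under 0.05. The largest differences were those of SON, a splicing cofactor (2.24 ± 0.23), CMTR1, the cap methyltransferase that binds DHX15 in human cells (1.90 ± 0.13), and GPATCH1 (1.49 ± 0.11).

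Among helicases of translation and decay, DHX29 stood out. DHX29 binds the small ribosomal subunit and helps it scan structured leaders in mammals. It read 6.08, 6.37 and 6.05 in PGC and 2.47, 3.37 and 3.09 in CEF, so that the groups were 2.68 apart at their nearest arrays. The log2 difference was 3.19 ± 0.23, or 9.14-fold (adjusted p = 6.4e-06). A second, shared probe set of the gene read 4.75 on average in PGC and 4.17 in CEF and did not pass the test (0.58 ± 0.34, adjusted p = 0.19), so the size for DHX29 depended on the probe set.

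DDX3X, a translation helicase and the closest relative of DDX4 among the members, read 10.68, 10.65 and 10.64 in PGC and 10.42, 10.18 and 10.33 in CEF. It was bright in both cell types and higher in PGC by 0.35 ± 0.066 (1.27-fold, adjusted p = 0.0022), under the 2-fold minimum. DDX4, for comparison, read 10.85, 10.84 and 10.78 in PGC and 1.51, 1.51 and 1.17 in CEF, below the CEF background level. DHX36, which resolves RNA G-quadruplexes, differed by 0.38 ± 0.11 (adjusted p = 0.023) on its brightest probe set. Its 3 dimmer measured probe sets differed by 0.013, -0.083 and -0.28 and did not pass the test.

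DDX6 represses translation and activates decapping in processing bodies, and it was lower in PGC. Its values were 3.96, 4.22 and 3.87 in PGC and 4.83, 4.40 and 4.54 in CEF, a difference of -0.57 ± 0.17 (adjusted p = 0.020) under the 2-fold minimum. Its second probe set was called higher in CEF (-1.36 ± 0.20, adjusted p = 0.00057). After spike-in scaling the first turned to 0.40.

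Most partners of DDX6 were higher in PGC. Of 18 measured genes of decapping, deadenylation and DDX6-bound repressor complexes, 11 (61.1%) were called higher in PGC against 17.6% of all genes, with a median difference of 1.19. Limma called 0 higher in CEF, against 14.9% of all genes, with 3 at an unadjusted p under 0.05. DCP2, the decapping enzyme, was 22.6-fold higher on the deposited values (4.50 ± 0.28, adjusted p = 2.7e-06). Its CEF values were 1.85, 1.84 and 2.95, against background levels of 1.95, 1.97 and 1.99 on those arrays, so this size rests partly on values under background. CPEB1, which holds maternal messages silent until their tails are extended, was 20.5-fold higher (4.36 ± 0.15, adjusted p = 9.6e-08). LSM14A, which binds DDX6 directly, was 3.43-fold higher (1.78 ± 0.090). Among the genes of this list that were not called were XRN1, the exonuclease that follows decapping (-0.35 ± 0.12), and DCP1B, a decapping cofactor (-0.98 ± 0.15).

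DDX43 was the member with the largest difference. Known as a cancer-testis antigen in human, it is expressed mainly in testis and tumours. It read 6.68, 6.77 and 6.78 on the PGC arrays and 1.42, 1.52 and 2.02 on the CEF arrays, whose mean of 1.65 lay under the CEF background level. On this probe set, which is marked as shared, DDX43 was therefore at least 27.0-fold higher in PGC (deposited difference 5.09 ± 0.18, adjusted p = 1.1e-07). A second probe set, not marked as shared and also below background in CEF, was at least 6.63-fold higher. The third was below background in both cell types.

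DDX25, the gonadotropin-regulated testicular helicase of rodents, was dim. Its means were 3.12 in PGC and 2.41 in CEF, against background levels of 1.68 and 1.97. It read 3.06, 3.04 and 3.25 in PGC and 2.35, 2.14 and 2.74 in CEF (0.71 ± 0.18, adjusted p = 0.0098). The groups did not overlap, but the difference stayed under the 2-fold minimum.

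RNA helicases outside the DDX and DHX symbols were called higher in PGC for 6 of 19 measured genes (31.6%, against 17.6% of all genes) and in CEF for 1 (5.26%, against 14.9%), with a median of 0.66. MOV10L1 and TDRD9, both of the piRNA pathway, led with at least 18.6-fold and 12.7-fold. SKIV2L, of the cytoplasmic RNA exosome, followed at 3.48-fold (1.80 ± 0.17, adjusted p = 3.1e-05). The one called higher in CEF was ZNFX1, an antiviral helicase (-1.82 ± 0.22, adjusted p = 0.00015). The list had 0 such calls by limma when all probe sets of a gene were averaged and after spike-in scaling.

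DDX19, which removes export factors from messages at the nuclear pore, was higher in CEF. It read 9.00, 9.12 and 9.04 in PGC and 9.87, 9.47 and 9.65 in CEF (-0.61 ± 0.10, adjusted p = 0.0011), with no overlap but under the 2-fold minimum, and it turned to 0.36 after spike-in scaling. The annotation gives a single DDX19 gene. Its export partners were called higher in PGC for 3 of 15 measured genes (20.0%, close to the 17.6% of all genes), with a median of 0.70. Limma called 0 of the 15 higher in CEF, against 14.9% of all genes, with 0 at an unadjusted p under 0.05. The 3 called higher in PGC were ZC3H11A (1.30 ± 0.16), NUP42 (1.27 ± 0.12), a pore protein at the site where DDX19 acts, and POLDIP3 (1.21 ± 0.087).

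DDX20, the Gemin3 subunit of the SMN complex that assembles spliceosomal snRNPs, was higher in PGC under the 2-fold minimum (0.57 ± 0.14, adjusted p = 0.010), and a dimmer shared probe set was called (1.27 ± 0.24, adjusted p = 0.0025). Of 7 other SMN complex genes measured, 3 (42.9%, against 17.6% of all genes) were called higher in PGC, namely STRAP (1.78 ± 0.088), GEMIN8 (1.71 ± 0.21) and SMN (1.07 ± 0.084). Limma called 0 of the 7 higher in CEF, against 14.9% of all genes, with 0 at an unadjusted p under 0.05. DDX1, of the tRNA ligase complex, differed by -0.22 ± 0.080 and did not pass the test (adjusted p = 0.0502).

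DDX28, which helps assemble the large subunit of the mitochondrial ribosome, was called higher in PGC. It read 7.56, 7.61 and 7.61 in PGC and 6.56, 6.22 and 6.25 in CEF (1.25 ± 0.12, 2.38-fold, adjusted p = 3.5e-05). All 3 of its probe sets were called in the same direction, with differences between 1.09 and 1.25. DHX30, of mitochondrial RNA granules, had overlapping groups (0.10 ± 0.12, adjusted p = 0.50), with a sign that turned to -0.020 under 75th percentile centring and -0.0051 under quantile normalization. Its dimmer probe sets did not overlap between the cell types and pointed in opposite directions, at 0.54 ± 0.13 (adjusted p = 0.0081) and -0.58 ± 0.16 (adjusted p = 0.015).

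DDX59, whose human gene is mutated in an orofaciodigital syndrome, read 6.26, 6.19 and 6.10 in PGC and 5.15, 4.69 and 5.19 in CEF (1.18 ± 0.16, 2.26-fold, adjusted p = 0.00031). Its other measured probe set gave 1.23, while the mean with the third one, below background in both cell types, gave 0.78 and was not called. DHX40 was higher in PGC by 0.55 ± 0.10 (adjusted p = 0.0022), under the 2-fold minimum. DHX57 differed by -0.78 ± 0.29 (adjusted p = 0.053), with 1 CEF array at 5.20 and the other two at 3.97 and 4.25. Without CEF replicate 2 it reached -1.03 and was called, and its dimmer measured probe sets differed by 0.39 and -0.14.

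The members of viral RNA sensing, DHX58 and DDX60, were dim in both cell types. The chicken lacks the sensor RIG-I, and DHX58, known as LGP2, works beside the remaining sensor IFIH1. IFIH1, which is no member, was brighter, with means of 3.24 in PGC and 4.03 in CEF. Its groups did not overlap, and it was higher in CEF under the 2-fold minimum (-0.79 ± 0.16, adjusted p = 0.0028). DHX58 read 1.38, 1.74 and 1.62 in PGC, with a mean under the background level, and 2.70, 2.80 and 2.45 in CEF. The groups did not overlap, and it was called higher in CEF (-1.07 ± 0.15, adjusted p = 0.00042), but against the background level the fold was at least 1.95, short of the 2-fold minimum. The difference came to -0.97 without PGC replicate 1, to -0.99 without CEF replicate 2 and to -0.093 after spike-in scaling. DDX60, an antiviral helicase, was below background in both cell types.

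Signalling partners of RNA sensing were called higher in CEF for 3 of 9 measured genes (33.3%, against 14.9% of all genes). Limma called 0 of the 9 higher in PGC, against 17.6% of all genes, with 1 at an unadjusted p under 0.05. TRIM25, the ubiquitin ligase of this pathway, lay under the background level in PGC and was higher in CEF at least 26.0-fold (-5.06 ± 0.16, adjusted p = 7.2e-08). RIPK1, a kinase of death and inflammatory signalling, was 3.61-fold higher (-1.85 ± 0.13), and IRF7, a transcription factor of the interferon response, 2.11-fold higher (-1.08 ± 0.21). Most leukocyte markers and some endothelial ones, given above, were also called higher in CEF, and their part in the result was not tested. On the CEF arrays TRIM25 read 6.52, 6.51 and 6.12, RIPK1 6.81, 6.71 and 6.61, and IRF7 4.87, 4.09 and 4.32. The leukocyte marker LY86 read 6.23, 4.99 and 7.59 on the CEF arrays, and CD44 read 8.94, 9.12 and 9.79. The leukocyte markers did not share a common order over these arrays. No reading of the leukocyte part is drawn from these values.

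DDX11 is a DNA helicase of sister chromatid cohesion that carries a DEAH motif, and its probe sets disagreed. The brightest, which is marked as shared between transcripts, read 5.14, 5.17 and 5.10 in PGC and 5.99, 6.40 and 6.14 in CEF and was called higher in CEF (-1.04 ± 0.14, adjusted p = 0.00028). Another shared probe set (2.18 ± 0.25, adjusted p = 0.00011) and one not marked as shared (1.40 ± 0.14, adjusted p = 4.6e-05) were called higher in PGC. The remaining measured probe sets differed by -0.29 and 0.17 and were not called. Without CEF replicate 2 the brightest came to -0.92, under the 2-fold minimum, and DDX11 was the only member called in both directions, so no direction is given for it.

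**Figure D3:**
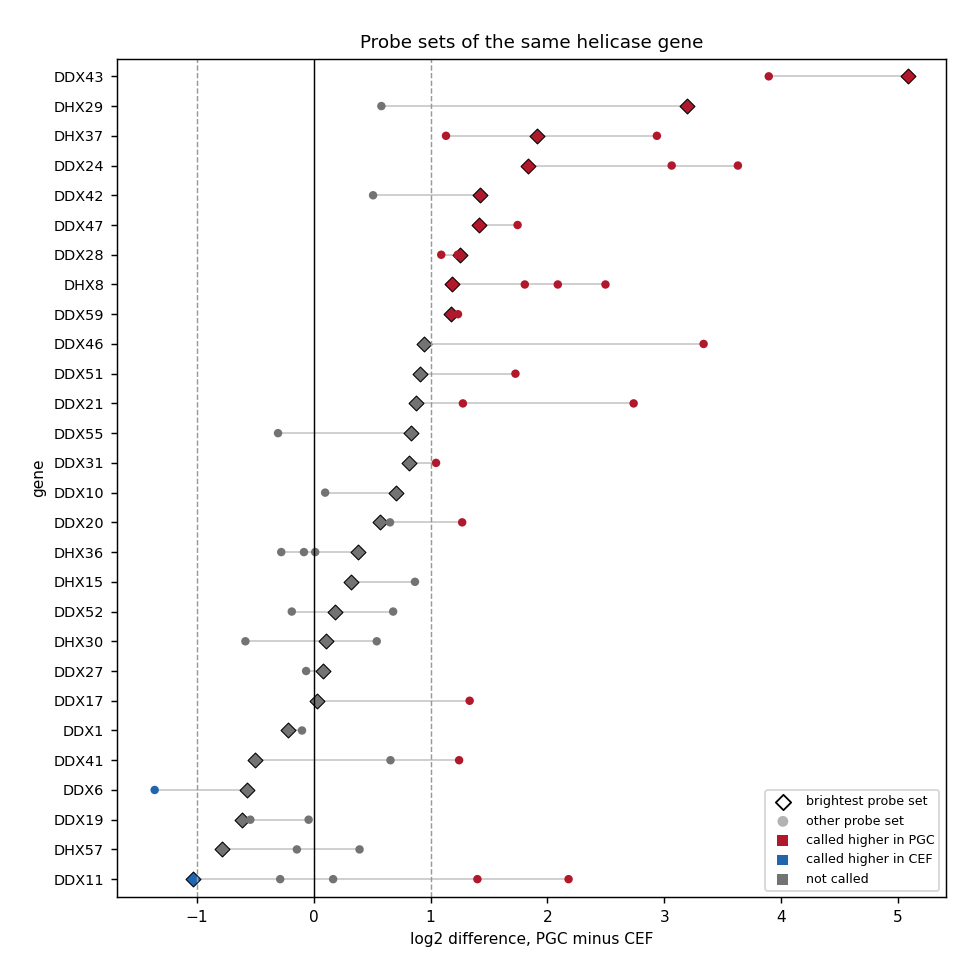
Log2 difference, PGC minus CEF (horizontal axis), of every probe set above background in at least 1 cell type, for the 28 helicase genes with 2 or more such probe sets. Diamonds mark the brightest probe set of a gene, circles the others, and colour marks calls. DDX11 has calls on both sides of 0, and DDX46, DDX21, DDX24 and DHX29 spread widely on one side.

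Calls were also counted over all probe sets of the members, including the brightest ones already counted above. The 40 members had 101 probe sets, 84 of them above background in at least 1 cell type. Over all 101, 34 (33.7%) were called higher in PGC and 3 (2.97%) higher in CEF, where 14.6% and 10.1% of all probe sets were. Probe sets of a gene are not independent. Of the 28 members with at least 2 measured probe sets, 7 had every one called higher in PGC, namely DHX37, DDX24, DHX8, DDX28, DDX43, DDX47 and DDX59.

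The brightest probe set often lay less far towards PGC than a dimmer one of the same gene. Of 45 dimmer measured probe sets, 30 lay further towards PGC than the brightest and 15 lay further towards CEF. DDX46 differed by 0.94 on its brightest and by 3.34 ± 0.17 on the other (adjusted p = 7.8e-07). DDX21 differed by 0.87 on its brightest and by 1.28 and 2.74 on the others, and DDX24 by 1.83, 3.63 and 3.06. In all, 8 members not called higher in PGC by their brightest probe set were called so by a dimmer one, among them DDX51 (1.73 ± 0.19) and DDX17 (1.33 ± 0.27). DDX55, by contrast, differed by 0.83 on its brightest probe set and by -0.30 on a shared one.

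**Figure D4:**
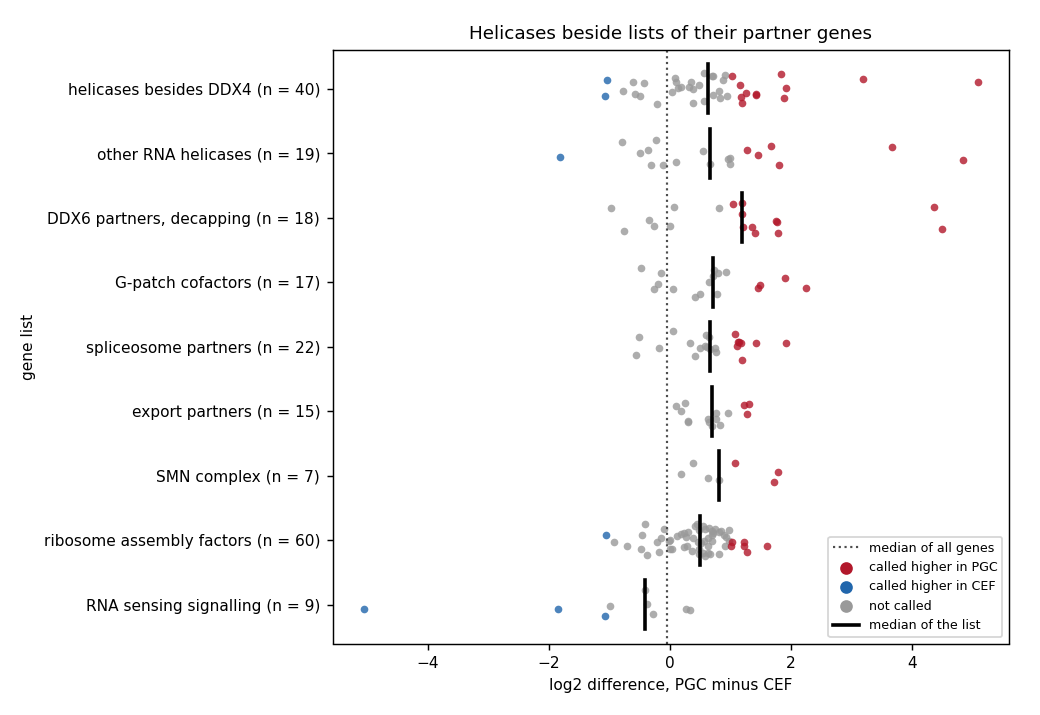
Log2 difference, PGC minus CEF (horizontal axis), of the 40 helicases and of 8 lists of other helicases and partner genes. Each point is a gene, coloured where called, black bars are list medians and the dotted line is the median of all genes at -0.05. The DDX6 partners have the highest median, 1.19, and RNA sensing signalling the lowest, -0.41.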

How the data were processed

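Values for 38535 probe sets on 6 Affymetrix Chicken Genome arrays had been deposited, and were read from their range (-0.13 to 12.52) as log2 expression. That the authors had normalized them between arrays was assumed. Per the submitters' processing notes, MAS5 and GCOS were used. Their roles and versions, the normalization and any hybridisation or scan batches were not stated in what was used here, so these values' making is known only in part. The log base rests on that reading.

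The values were used unscaled. After 96 control probe sets were left out, 38439 probe sets were compared between 3 PGC and 3 CEF arrays with limma 3.58.1 in R 4.3.3 (lmFit, eBayes with an intensity trend, two-sided, 4 residual degrees of freedom), with Benjamini-Hochberg adjustment over all of them. Calls needed an adjusted p under 0.05 and a 2-fold difference. The number of arrays limits the precision, and the pipeline was tested on simulated data. Groups and replicate numbers came from the titles, which call the replicates biological.

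The annotation gave 1 symbol to 27178 probe sets, several to 177 and none to 11180. Probe sets marked shared can match several transcripts, and 16 of the 40 members were read from one. Among those called higher in PGC these were DDX43, DHX37, DHX33 and DDX59, and DHX33 had no other probe set. The background level was the 95th percentile of 689 probe sets without the chicken prefix, averaged over the arrays of a cell type. Where the lower cell type lay under it, "at least N-fold" compares the higher mean with, per array, the greater of that level and the probe set's own value. No member was brighter than the spike-in cre.

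Members, lists, roles, tests and alternatives were chosen with earlier results of these data known. Of 251 list entries, 204 matched a symbol. All members could be named, with array values for those called and for paralog pairs, and those of DDX6, DDX25 and DHX57 were added after their values were seen. Of a partner list the 3 largest called differences in each direction were named, and XRN1 and DCP1B were added after their values were seen. Alternatives changed the scaling between arrays, the variance model, the threshold, the filter on dim probe sets, the probe set that stood for a gene and the replicate block, or left out 1 array. DDX50 and the DDX39 genes were not analysed here.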

Additional observations from a re-analysis of the deposited data

How the results depend on the processing

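Across 16 alternatives, DDX43, DHX29, DHX37, DHX33 and DDX24 kept their calls towards PGC in each alternative that could be computed for them. Of the 26 members not called, DDX1, DDX19, DDX41, DDX6 and DDX60 were called under none of the alternatives, though each turned sign under at least 1. Scaling to the spike-ins bioB, bioC and bioD called 32 members towards PGC and 0 towards CEF, and their median became 1.60. Under it 45.7% of all genes were called higher in PGC and 7.12% in CEF. In PGC and CEF, 12 and 0 of 19 other RNA helicases and 46 and 0 of 60 ribosome assembly factors were called. RNA sensing signalling gave 2 and 1 of 9 genes. Called in PGC were 13 of 17 G-patch, 7 of 7 SMN complex, 15 of 15 export and 19 of 22 spliceosome genes. DDX1 (0.76), DDX19 (0.36), DDX41 (0.48), DDX6 (0.40), DDX60 (0.54) and DHX57 (0.19) turned sign. Limma's treat against a 2-fold difference left 7 members in PGC and 0 in CEF, where 10.8% and 9.86% of all genes were called. It left 5 DDX6 partners, 0 export partners, 1 spliceosome partner, and 1 and 0 ribosome assembly factors. The mean of all probe sets gave 1 member higher in CEF, 0 other helicases in CEF and 7 G-patch genes in PGC, and turned DDX11 to 0.32 and DDX41 to 0.47. Centring on the 75th percentile gave a median of 0.50, 1 DDX6 partner and 2 ribosome assembly factors in CEF and 5 spliceosome partners in PGC, and turned DDX17 (-0.097), DDX27 (-0.045) and DHX30 (-0.020). Quantile normalization gave 1 DDX6 partner in CEF and turned DDX17 (-0.011) and DHX30 (-0.0051). The brightest probe set not marked as shared, an alternative chosen after seeing the data, gave 1 member in CEF, a median of 0.51 and 3 spliceosome partners, and turned DDX11 (1.40), DDX27 (-0.065) and DHX30 (-0.58). Leaving out 1 array at a time gave 11 to 13 members in PGC, 1 to 2 in CEF, a median of 0.53 to 0.70, 0 to 1 DDX6 partners and 0 to 1 ribosome assembly factors in CEF, and DDX17 between -0.015 and 0.057. The cause of these moves was not tested. With the replicate number as a block the counts were 12 and 2, and deviations of same-numbered arrays correlated at -0.036, -0.014 and 0.0088, so the numbers were not taken to pair the samples.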
